A study of Mus musculus with 2 samples.

Results

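Toll-like receptors are germline-encoded sensors with which monocytes and macrophages recognise microbial molecules. The 10 mouse genes Tlr1 to Tlr9 and Tlr13 are described here, out of 24813 genes named by a probe on the array. They were taken by gene symbol from the non-control spots of both scanner files, which hold 21 probes for them. The samples were splenic monocytes of ICR mice, an outbred stock, sorted on a flow cytometer by their CD11b and Ly6C staining. One sample came after a sham operation and the other after a 5/6 nephrectomy (5/6Nx), which takes away most of the kidney tissue as a model of chronic kidney disease. Both were taken 8 weeks after the operation, and each group is 1 array. Age, sex and the number of mice per RNA sample are not given in the labels.

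Receptors of the plasma membrane bind components of the microbial surface. TLR2 pairs with TLR1 or TLR6 to bind bacterial lipopeptides, TLR4 binds lipopolysaccharide, and TLR5 binds flagellin. Receptors of endosomes bind nucleic acids, double-stranded RNA for TLR3, RNA and its breakdown products for TLR7 and TLR8, unmethylated CpG DNA for TLR9 and bacterial ribosomal RNA for TLR13. Ligand binding brings together adaptors such as MyD88 and TRIF, which lead to NF-kappaB, AP-1 and interferon regulatory factors.

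Signals are given as processed intensity in scanner units. The level of a probe is log2 of its intensity minus the 75th percentile of its array, at 439.2 for sham and 544.5 for 5/6Nx. Every difference is 5/6Nx minus sham in these log2 units. A gene counts as measured where a probe was well above background on both arrays by the software's call, and is given by the brightest such probe. Since each group has a single array, nothing was tested, no p-value exists, and each value compares these RNA samples and not the operations. Spot noise was taken from 283 probes with at least 8 spots well above background on both arrays. Spots at the same place on both arrays gave an SD of 0.059 for the difference. That SD leaves out sorting, labelling and animals. Each of the 21 receptor probes has 1 spot, and for the 18 measured on both arrays the software's own error was 10 to 19.5% of the signal. Probes bind with different strength, so the levels of different receptors are not ranked against each other.

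Of the non-control spots 63.0% were well above background for sham and 67.0% for 5/6Nx. The monocyte genes Csf1r, Lyz2 and Itgam, which encodes CD11b, were bright in both samples, with sham intensities of 70611, 324209 and 33016 and 5/6Nx intensities of 72856, 280049 and 31995. Of the sort antigens Itgam differed by -0.36, or 0.079 with spike-in scaling, whereas the Ly6C genes Ly6c1 and Ly6c2 both differed by 1.98, and their probes may not separate these paralogs. Of 10 monocyte markers 4 were at least 2-fold higher after 5/6Nx and 3 lower, with Cx3cr1 at -4.24, and the median was -0.39. Of 10 measured T cell markers 9 were higher, led by Cd3g at 6.31 and Cd3d at 6.19. The intensities of this list, summed relative to the 75th percentile, came to 3.62 for sham and 73.0 for 5/6Nx. All 5 measured NK cell markers were higher, led by Gzma at 9.55 and Il2rb at 7.66, 5 more were well above background after 5/6Nx alone, and the sums were 0.83 and 80.8. The counts of every marker list stand beside 12.2% of all measured genes at least 2-fold higher and 11.0% lower. The other lists are given by counts first, since their brightest probes set the sums. Of 7 measured B cell markers 2 were higher and none lower (median 0.86, sums 3.44 and 5.92), and of 6 for plasmacytoid dendritic cells 1 was higher and none lower (median 0.27, sums 246.6 and 282.9). Of 5 conventional dendritic cell markers 2 were higher, Itgae at 4.43 and Batf3 at 4.28, and the bright Clec10a was lower at -4.12 (median 0.72, sums 52.2 and 8.42). Of 6 neutrophil markers 2 were higher, with Ly6g at 4.53, and Mmp8 was lower at -3.97 (median 0.38, sums 274.9 and 300.5). Of 4 measured red pulp macrophage markers Spic was higher at 5.53 and 2 were lower, with Slc40a1 at -2.58 (median -0.72, sums 86.0 and 99.0). Vcam1 of this list was well above background after 5/6Nx alone, at least 74.3-fold higher, and at that bound the list median was 0.26. Other markers seen after 5/6Nx alone were 1 for T cells, 3 for B cells and 2 for neutrophils. Each dendritic cell list held 2, and the conventional list held 1 more seen in the sham sample alone. The part of these cells in the receptor values was not tested. In RNA from sorted cells fewer cells of a type and less RNA per cell cannot be told apart.

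Of the 10 receptors 9 were measured on both arrays. Tlr1, Tlr2 and Tlr3 were higher after 5/6Nx by 2-fold or more, and Tlr8 and Tlr13 were lower by as much. Tlr4, Tlr6, Tlr7 and Tlr9 lay within 2-fold, and Tlr5 was well above background in the sham sample alone. The 3 higher and 2 lower receptors of 9 stand beside 12.2% and 11.0% of all 15715 measured genes. For the same 5 receptors every measured probe was past 2-fold on the same side, beside 10.4% of all genes upward and 9.04% downward. Over 9 receptors each of those shares comes to about 1 gene. The median difference was -0.24 over the 9 receptors, -0.35 with Tlr5 added at its bound, and -0.12 over all measured genes. Of the genes 2-fold apart 52.8% were higher, but spike-in scaling gave 79.5% and median scaling 40.7%.

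**Figure D1:**
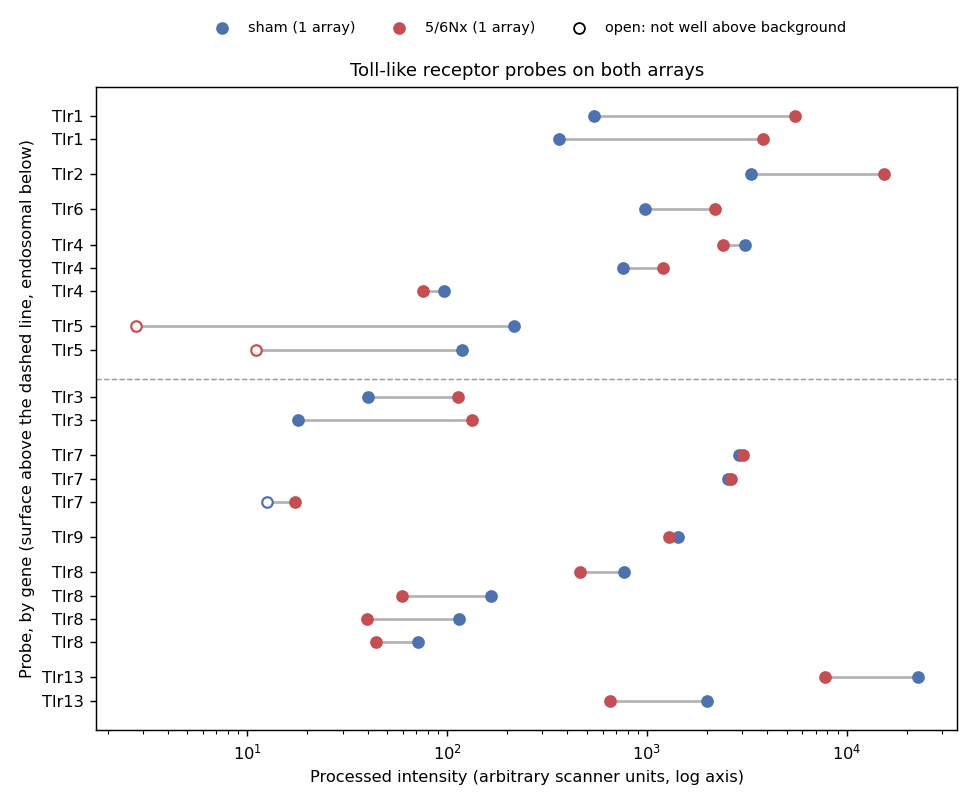
Processed intensity (scanner units, log axis) of all 21 Toll-like receptor probes, 1 line per probe, for sham (blue) and 5/6Nx (red), with surface receptors above the dashed line; open circles were not well above background. The 5/6Nx points of Tlr1, Tlr2 and Tlr3 lie to the right of the sham points, those of all Tlr8 and Tlr13 probes lie to the left, and both Tlr5 probes have open circles for 5/6Nx. The axis is not scaled to the 75th percentile, at 439.2 for sham and 544.5 for 5/6Nx. The bright Tlr7 probes therefore lie to the right for 5/6Nx, although their scaled differences were -0.24 and -0.27.

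Tlr1, the partner of TLR2 for triacylated lipopeptides, had the largest upward difference of the receptors. Its probes read 541.9 and 362.9 for sham and 5516 and 3797 for 5/6Nx. The differences were 3.04 and 3.08, or 8.21-fold and 8.44-fold, so that both probes gave nearly the same value. Tlr2, the receptor shared by both lipopeptide heterodimers, read 3316 for sham and 15460 for 5/6Nx, a difference of 1.91 or 3.76-fold. Tlr6, its partner for diacylated lipopeptides, read 983.7 and 2199, a difference of 0.85 or 1.80-fold. The 3 genes of the lipopeptide heterodimers were thus higher after 5/6Nx, in the main setting and in all 10 others tried, and Tlr1 lay 2.19 above Tlr6. Tlr2 and Tlr6 have 1 probe each, so settings that changed only the filter or the choice of probes could not move them. With spike-in scaling Tlr6 was past 2-fold as well, at 1.28.

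The probes behind the largest upward differences are 60 bases long. The dimmer Tlr1 probe lies at chr5:65316115-65316174 and the Tlr2 probe at chr3:83640344-83640403, both on the minus strand of mm9, the build in the scanner files. Exon, intron and UTR annotation on mm9 was not used here.
Tlr1: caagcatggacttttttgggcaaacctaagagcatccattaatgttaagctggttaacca
Tlr2: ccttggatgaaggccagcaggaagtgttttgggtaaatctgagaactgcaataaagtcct

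Tlr4, the lipopolysaccharide receptor, had probes that differed in sign. The brightest read 3100 for sham and 2405 for 5/6Nx, a difference of -0.68. It is assigned to an Ensembl transcript and lies at chr4:66591199-66591258 (mm9), 87.4 kb beyond the last probe of the RefSeq Tlr4 transcript. Of the RefSeq probes, the one that starts at base 3739 of the transcript read 756.8 and 1197, a difference of 0.35. The one that starts at base 359 read 96.7 and 76.0, a difference of -0.66. None of the 3 probes was 2-fold apart, and the direction for Tlr4 turned with the probe chosen.

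Tlr5, the flagellin receptor, was well above background in the sham sample alone. Its probes read 217.2 and 119.1 there. After 5/6Nx they read 2.76, a surrogate that the software sets for low spots, and 11.0. Tlr5 was thus at least 19.7-fold lower with the brighter probe and at least 10.8-fold with the other, taken against an intensity of 13.7, the lowest that the software called well above background after 5/6Nx. The brighter probe's bound was 5.34-fold with normexp, another background correction, and 14.5-fold to 21.8-fold with the other scalings. Of 419 genes above background in the sham sample alone, 39.4% had a bound of 2-fold or more.

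Among the endosomal receptors Tlr3 was higher after 5/6Nx, and Tlr8 and Tlr13 were lower. Tlr13, the sensor of bacterial ribosomal RNA, read 22828 and 2005 with its probes for sham and 7780 and 652.9 for 5/6Nx. The differences were -1.86 and -1.93, or 3.64-fold and 3.81-fold lower, close together although the probes differ widely in brightness. Tlr8, a receptor for RNA breakdown products, was lower with all 4 of its probes. Its brightest probe, on a predicted RefSeq transcript, read 766.9 and 460.2, a difference of -1.05 or 2.07-fold lower. The probe of the curated RefSeq transcript read 114.4 and 39.8, a difference of -1.83. The other two, on Ensembl transcripts, read 165.5 and 71.5 for sham and 59.6 and 44.2 for 5/6Nx, and the second of them lay just past the 2-fold mark. That probe spans 4343 bases on the genome with 60 bases of sequence, so it crosses an intron. The size for Tlr8 thus varied by probe, and its brightest probe lay within 2-fold with normexp, at -0.92, and with spike-in scaling, at -0.61.

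The curated Tlr8 probe at chrX:163680715-163680774 (mm9, minus strand) and the dimmer Tlr13 probe at chrX:103354821-103354880 (mm9, plus strand) are shown because these genes were the lower ones among the measured receptors.
Tlr8: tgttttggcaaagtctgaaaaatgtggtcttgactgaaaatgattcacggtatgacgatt
Tlr13: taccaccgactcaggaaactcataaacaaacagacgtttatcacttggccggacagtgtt

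Tlr3, the receptor for double-stranded RNA, was dim. Its probes read 40.3 and 17.9 for sham and 113.1 and 132.8 for 5/6Nx. The differences were 1.18 and 2.58, both past 2-fold but far apart in size. With normexp the brighter probe differed by 0.46, so that Tlr3 was then within 2-fold. Tlr7, the receptor for single-stranded RNA, read 2885 and 2559 with its bright probes for sham and 3033 and 2633 for 5/6Nx. The differences were -0.24 and -0.27, and the first was 0.20 with spike-in scaling. Another Tlr7 probe, of a different RefSeq transcript, read 12.6 and 17.4 and was not well above background for sham. Tlr9, the CpG DNA receptor, read 1427 and 1285, a difference of -0.46, or -0.027 with spike-in scaling. No probe of Tlr7 or Tlr9 that was measured in both samples was thus past 2-fold.

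Surface and endosomal receptors were then set side by side. The 4 measured surface receptors had a median difference of 1.38, with 2 of them 2-fold higher and none lower. With Tlr5 at its bound the surface median was 0.85. The 5 endosomal receptors had a median of -0.46, with 1 higher and 2 lower. Over all measured genes 12.2% were 2-fold higher and 11.0% lower, with a median of -0.12. By probe, 3 of 7 measured surface probes were 2-fold higher and none lower, but this leaves out both Tlr5 probes, which dropped below background after 5/6Nx. Of 11 endosomal probes 2 were higher, both of Tlr3, and 6 lower, 4 of them of Tlr8 and 2 of Tlr13. Probes of the same gene are not separate calls, and no share over all probes was computed. The gap between the medians was 1.84, or 1.31 with the bound, and it ran from 1.31 to 1.88 over the settings tried. This range does not measure stability. A single shift of a whole array cancels in the gap, so median and spike-in scaling gave 1.84 as well. The mean over probes and RefSeq probes only also gave 1.84, since Tlr2, Tlr6 and Tlr9, with 1 probe each, set the medians. The value of 1.31 came from letting Tlr5 in. The ranges overlapped, since Tlr5 at its bounds lay below all 5 endosomal receptors. Tlr4 lay below Tlr7 and Tlr9 with its brightest probe, at -0.68, but above them with RefSeq probes only, at 0.35. Tlr3 at 1.18 lay above Tlr6, but below it with normexp, at 0.46 against 0.82.

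**Figure D2:**
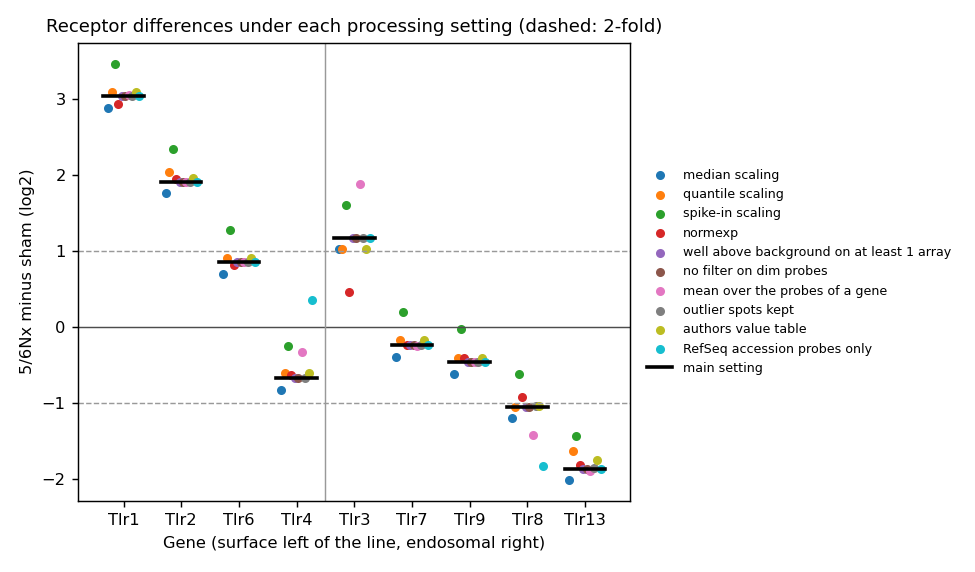
Difference of each receptor measured on both arrays (5/6Nx minus sham, log2) under the main setting (black bar) and 10 other settings (points), with surface receptors left and endosomal receptors right of the vertical line; Tlr5 has only a bound and is not drawn. Tlr1, Tlr2 and Tlr13 stay past the dashed 2-fold lines in all 10 settings, Tlr3 in 9 and Tlr8 in 8.

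In order of difference the measured receptors ran from Tlr1 through Tlr2, Tlr3, Tlr6, Tlr7, Tlr9, Tlr4 and Tlr8 to Tlr13. The smallest gaps between neighbours were 0.22, from Tlr7 to Tlr9 and from Tlr9 to Tlr4. These exceed the spot SD of 0.059, but the software's errors give 0.20 to 0.32 for the difference of a single receptor probe. A gap holds the errors of both receptors, so the order within this stretch is not resolved. The gaps from Tlr3 to Tlr6, at 0.33, and from Tlr4 to Tlr8, at 0.37, lie just above that range and are not called resolved either. The probes used for Tlr3, Tlr6 and Tlr8 lay nearer to the 2-fold mark than the software's error for a single probe. The place of Tlr4 changes with its probe, and that of Tlr3 with its probe and with normexp. Among all measured genes Tlr1 lay at the 97.5 percentile of the differences, Tlr2 at 95.2, Tlr3 at 90.6 and Tlr6 at 85.1. Tlr13 lay at the 3.16 percentile and Tlr8 at 10.2.

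**Figure D3:**
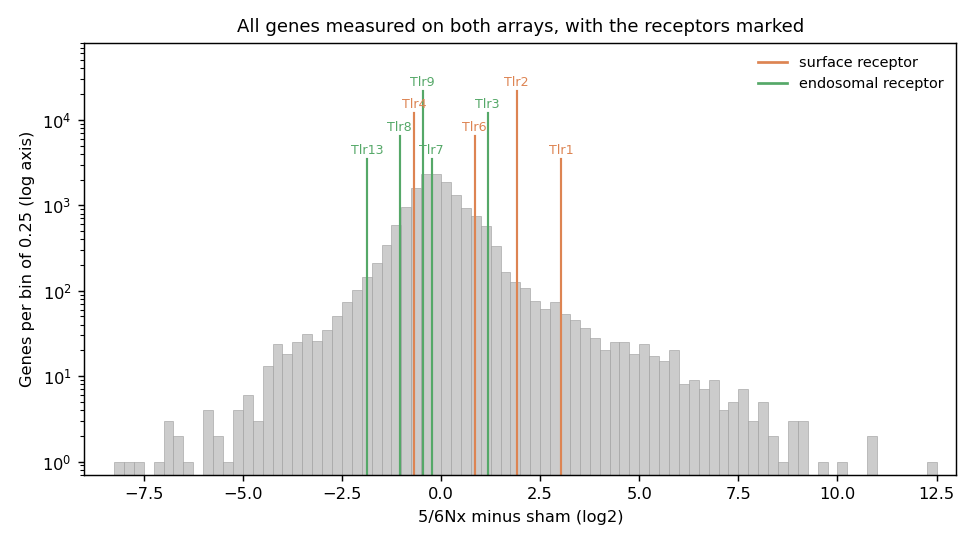
Number of genes (log axis) per bin of 0.25 in the difference 5/6Nx minus sham (log2), over the 15715 genes measured on both arrays, with lines at the 4 surface (orange) and 5 endosomal (green) receptors measured. Tlr1 at 3.04 and Tlr13 at -1.86 lie on the flanks of the distribution, and Tlr7 and Tlr9 lie near its centre.

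Neighbouring receptor genes did not share one difference. Tlr1 and Tlr6 lie on the minus strand of chromosome 5, with probes 28.2 kb apart on mm9, and differed by 3.04 and 0.85. Tlr7 and Tlr8 lie on the minus strand of chromosome X, with 41.2 kb between their nearest probes, and differed by -0.24 and -1.05. Tlr13, elsewhere on chromosome X, differed by -1.86.

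The promoters were read for motifs of factors that act in this pathway and in myeloid cells. RefSeq promoter entries on GRCm38.p6 matched 8 of the 10 receptors, all but Tlr4 and Tlr7, in 10 windows, since Tlr1 and Tlr6 each have another start. In each window the 250 bases before the start were searched on both strands. The kappaB motif of NF-kappaB was found at Tlr2 and Tlr3, and in 7.25% of all 32851 windows. The PU.1 motif GAGGAAG, of a factor central to myeloid cells, was found at Tlr1, Tlr9 and Tlr13, and in 10.6% of all windows. The STAT motif TTCNNNGAA was found at the other start of Tlr1 and at Tlr8 (7.02% of all windows), and the AP-1 motif TGANTCA at Tlr9 (6.75%). The interferon response motif, GAAA repeated after any 2 bases, was found at Tlr6 (2.98%). The matches at Tlr2 are an overlapping pair, as are those at Tlr6. GC content ran from 31.2% at Tlr8 to 62.8% at Tlr2, against a median of 52.4% over all windows.

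The windows of Tlr2 and Tlr3, both higher after 5/6Nx, are shown with the kappaB match in capitals. They lie at chr3:83841609-83841858 and chr8:45410381-45410630 (GRCm38.p6, minus strand). Those of Tlr1, higher after 5/6Nx, and Tlr13, lower, are shown with the PU.1 match in capitals, at chr5:64933559-64933808 (minus strand) and chrX:106143025-106143274 (plus strand). The PU.1 letters were thus present at genes with differences of either sign. No kappaB match was found in the windows of Tlr1 and Tlr6, which were also higher after 5/6Nx. A link between motifs and differences was not tested.
Tlr2 promoter: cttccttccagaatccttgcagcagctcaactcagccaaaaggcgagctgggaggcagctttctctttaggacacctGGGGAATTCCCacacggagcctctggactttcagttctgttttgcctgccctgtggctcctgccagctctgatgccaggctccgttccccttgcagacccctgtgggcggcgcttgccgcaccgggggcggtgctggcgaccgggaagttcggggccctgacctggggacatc
Tlr3 promoter: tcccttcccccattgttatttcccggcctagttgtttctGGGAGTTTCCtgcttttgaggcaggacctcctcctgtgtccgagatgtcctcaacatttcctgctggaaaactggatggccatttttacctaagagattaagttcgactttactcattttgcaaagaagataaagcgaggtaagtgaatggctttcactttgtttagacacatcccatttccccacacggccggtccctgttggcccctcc
Tlr1 promoter: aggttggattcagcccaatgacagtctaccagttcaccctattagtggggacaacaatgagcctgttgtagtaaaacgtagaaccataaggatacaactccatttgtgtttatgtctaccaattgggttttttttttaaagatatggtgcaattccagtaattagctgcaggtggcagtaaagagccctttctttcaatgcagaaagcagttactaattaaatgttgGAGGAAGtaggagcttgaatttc
Tlr13 promoter: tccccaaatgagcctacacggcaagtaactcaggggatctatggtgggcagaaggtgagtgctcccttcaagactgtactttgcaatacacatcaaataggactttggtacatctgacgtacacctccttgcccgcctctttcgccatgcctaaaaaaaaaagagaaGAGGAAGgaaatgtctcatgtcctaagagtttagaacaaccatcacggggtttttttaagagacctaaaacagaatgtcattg

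The other genes of the pathway were read in lists by role. Of 65 listed genes 60 were measured, 17 of them 2-fold higher after 5/6Nx and 5 lower, with a median of 0.22. These 22 of 60 stand beside 23.2% of all measured genes 2-fold apart. The counts of each list stand beside 12.2% of all measured genes higher and 11.0% lower. The inhibitors held the largest share, with 9 of 12 higher, none lower and a median of 2.05. Socs1, a suppressor of cytokine and TLR signalling, read 174.2 for sham and 14823 for 5/6Nx, a difference of 6.10. Il1rl1, the IL-33 receptor ST2, differed by 3.75, and Tnfaip3, the ubiquitin editor A20, by 3.21. Nfkbiz, at 3.27, encodes a nuclear IkappaB protein that also activates some NF-kappaB targets, so it is not an inhibitor alone. The list median lay between 1.66 and 2.48 over the settings tried. The T cell and NK cell marker sums given above were higher in the same sample, and their part in these lists was not tested.

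Tlr11 and Tlr12, the other mouse receptors, bind profilin of protozoan parasites. Tlr12 was well above background after 5/6Nx alone, at 190.0 against a surrogate of 2.59 for sham. It was at least 12.0-fold higher, or 3.22-fold with normexp. Of 1596 genes above background after 5/6Nx alone, 36.5% had a bound of 2-fold or more. Tlr11 was not well above background in either sample.

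Among surface co-receptors 1 of 5 measured genes was 2-fold higher and 1 lower, with a median of 0.30. Cd180, a TLR4-like receptor abundant on B cells, differed by 2.11, and its partner Ly86 by 0.97. Cd36, a scavenger receptor that assists TLR2 and TLR6, read 23207 for sham and 905.1 for 5/6Nx, a difference of -4.99. Cd14, which hands lipopolysaccharide to TLR4, differed by 0.30. Tlr2 was thus higher in the sample in which Cd36 was lower. Tlr6, at 0.85, lay within 2-fold, but past it with spike-in scaling, at 1.28.

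Genes of receptor trafficking and processing had a median of -0.23, with 1 of 12 measured genes higher and 2 lower, and the median was 0.20 with spike-in scaling. The lower ones were the lysosomal proteases Ctsl at -2.06 and Lgmn at -1.49, which can cut the ectodomains of endosomal receptors, and the protease Ctsb differed by -0.98. Slc15a3, a lysosomal peptide transporter, differed by 1.76. Tasl had no probe under that name.

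Of the adaptors Myd88, used by nearly all of these receptors, read 2748 for sham and 8372 for 5/6Nx, a difference of 1.30. Pik3ap1, which links the receptors to PI3 kinase, differed by 1.15. Ticam2, the bridging adaptor of TLR4, differed by 0.91, or 0.46 with normexp, and Tirap, the bridging adaptor of TLR2 and TLR4, by -0.73. Sarm1 was above background after 5/6Nx alone with a dim probe, at 33.5 against 8.29 for sham, which gave a bound of 2.12-fold higher. Another Sarm1 probe, at 2.90 for sham and 2.96 for 5/6Nx, was not well above background in either sample. The bound of Sarm1 with normexp is not given here. The median of the 5 measured adaptors was 0.91. Of 17 signalling kinases and ligases 2 were higher, a share near the 12.2% of all measured genes, and none lower. The higher ones were the kinase Ikbke at 2.22 and the ubiquitin ligase Peli1 at 1.56. Tab1 differed by -0.92 and Traf3 by 0.74, and the list median was -0.041, with the other sign in 3 settings.

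The transcription factor list was mixed, with 2 of its 9 genes higher, 2 lower and a median of 0.39. Irf7, the interferon regulatory factor downstream of TLR7 and TLR9, itself induced by interferon, read 998.9 for sham and 210033 for 5/6Nx, a difference of 7.41. Nfkb1 differed by 1.28, with its 3 probes between 0.91 and 2.85. The AP-1 subunits Fos and Jun differed by -1.91 and -1.01, and Jun by -0.57 with spike-in scaling. Irf7 was far higher in the sample in which Tlr7 and Tlr9 lay within 2-fold of sham.

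**Figure D4:**
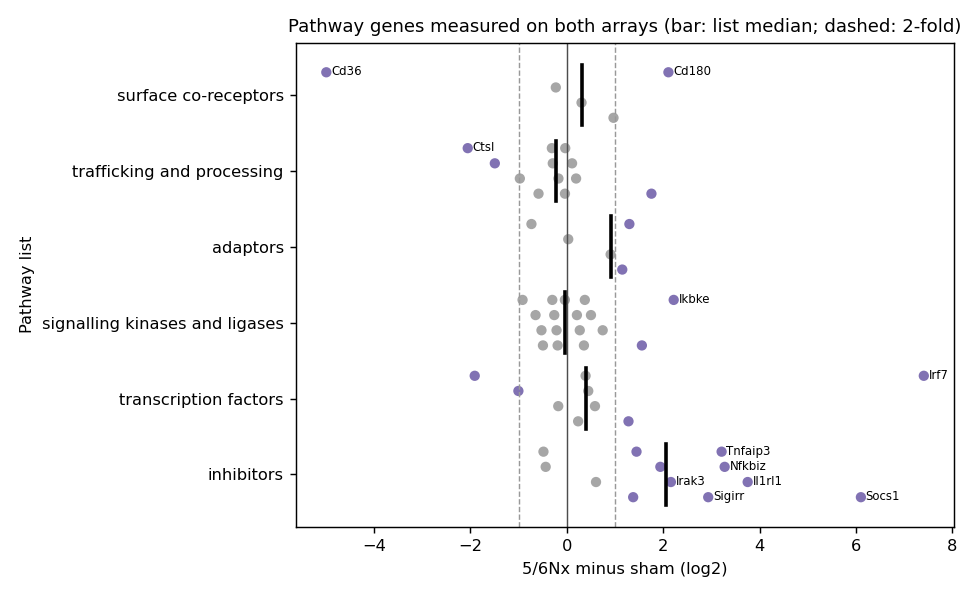
Differences (5/6Nx minus sham, log2) of the pathway genes measured on both arrays, 1 point per gene by list, purple where at least 2-fold apart and grey otherwise, with a black bar at the list median and names at 4-fold or more. The inhibitors lie mostly to the right, with a median of 2.05, and the kinases and ligases cluster around 0.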

How the data were processed

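RNA of both samples was amplified and labelled with Cy3, per the labels' protocols, for 1-colour Agilent arrays that share a slide and a scan. The authors deposited linear intensity values read by Agilent Feature Extraction (9.5.1.1 per the submitters' processing notes, 10.7.1.1 per the file headers). Per the file headers, they were background-subtracted and detrended within each array, with surrogates for low spots and no scaling between arrays. The deposited value table, whose normalization no source here states, served as an alternative.

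Outlier spots were dropped (41 for sham, 47 for 5/6Nx), and none was saturated. Scaling was to the 75th percentile of log2 values over the non-control spots. RefSeq names (GRCm38.p6) came by accession for 32994 probes, by symbol for 10224 and by synonym for 520, with 12867 unmatched. For a gene above background on 1 array, the bound uses as its dim level the probe's own or the lowest level well above background there, whichever is higher. Named are all members, up to 4 genes per pathway list and 2 per marker list with the largest differences, and bounds of 2-fold or more. Csf1r, Lyz2 and Itgam were added to check the cell type. B cell and plasmacytoid dendritic cell lists are given by counts, medians and sums, without named genes. Some genes that this rule takes are not reported here. Members and lists were chosen with earlier results of these data known. The steps were tested on simulated data. Normexp used limma 3.58.1 in R 4.3.3 with an offset of 50, and the rest Python 3.11.15. The number of arrays limits the precision.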

Additional observations from a re-analysis of the deposited data

How the results depend on the processing

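Results were recomputed under 9 planned settings and 1 chosen after seeing the data, which kept RefSeq accession probes only because the brightest Tlr4 and Tlr8 probes carry other accessions. The count of receptors 2-fold higher ran from 2 to 4 and the count lower from 1 to 3, with 1 lower under spike-in scaling and under normexp. The surface median was 1.23 with median scaling, 1.47 with quantile scaling, 1.81 with spike-in scaling and 0.85 with either looser filter on dim probes, which lets Tlr5 in. The endosomal median was -0.61 with median scaling, -0.027 with spike-in scaling and -0.40 with the authors' value table, where the cause was not tested. All genes 2-fold apart numbered 3644, but 2398 with normexp, where the cause was not tested, and 6379 without a filter on dim probes, which takes in more genes. The median of all genes was 0.31 with spike-in scaling and -0.27 with median scaling. No receptor past 2-fold in the main setting changed sign in these 10 settings. The looser filters could not move a receptor whose brightest probe was already measured. Settings on the choice of probes could not move Tlr2, Tlr6 and Tlr9, which have 1 probe each. Tlr4 turned with the RefSeq probes, and Tlr7 and the trafficking median with spike-in scaling. The dim Tlr3 and Tlr5 moved with the background correction. No paired analysis was possible because each group is 1 array.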

Other observations

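Some partners of the receptors, picked after their values were seen, showed small differences. Unc93b1, which carries endosomal receptors to their compartment, read 10531 for sham and 12709 for 5/6Nx, a difference of -0.039, or 0.40 with spike-in scaling. Hsp90b1, the chaperone that folds most of these receptors, differed by 0.11, or -0.041 with median scaling, and its cofactor Cnpy3 by -0.59. Ly96, the MD-2 subunit of the TLR4 complex, read 24473 and 25890, a difference of -0.23, or 0.21 with spike-in scaling. S100a8 and S100a9, whose proteins form a ligand of TLR4, differed by -0.55 and 0.51.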
